A study of Mus musculus with 28 samples.

Results

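The 45 mitosis and spindle genes described here were taken by name from the 55536 gene identifiers of each deposited count table: 45 genes whose products enter, run or end mitosis, sorted by role into 8 groups. The libraries came from 3 mouse cell lines grown alone or in direct contact: EO771, a breast cancer line, C2C12, a muscle line used as myotubes, and MLg, a lung fibroblast line. The 28 libraries form 7 groups of 4: EO771 with C2C12, EO771 with MLg, EO771 alone, C2C12 with EO771, C2C12 alone, MLg with EO771 and MLg alone, where the first name is the line whose RNA was sequenced. Every group has the genotype WT, and all cells were maintained in DMEM with fetal bovine serum and antibiotics. The cancer cells sat directly on their hosts, and the study's title concerns an antiproliferative effect of muscle cells on cancer cells. Neither the separation of the lines before RNA extraction nor the time they spent together is stated in the labels.

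Mitosis begins when CDK1 is activated by its cyclins and the CDC25 phosphatases, and the Polo and Aurora kinases act with it to build the spindle. The spindle checkpoint holds the anaphase-promoting complex (APC/C) inactive until every kinetochore is attached to microtubules, after which CDC20 and the APC/C release separase to cut cohesin and the central spindle guides cytokinesis. The transcripts of most of these genes peak in G2 and M phase, and their level in a culture is often read as a measure of proliferation. In bulk libraries, fewer cells in mitosis and less RNA per cell cannot be told apart.

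The 45 genes added up to 4583, 6320, 5892 and 5873 CPM (counts per 1000000 counts of the library) in EO771 with C2C12, to 5492, 6456, 6403 and 5737 CPM in EO771 with MLg, and to 6462, 6153, 6595 and 6847 CPM in EO771 alone. The sum was 5667 ± 752 CPM, 6022 ± 481 CPM and 6514 ± 289 CPM in these groups (SD, n = 4 each). In EO771 with C2C12, 17 of the 45 genes were called lower and 0 higher than in EO771 alone by edgeR at an adjusted p under 0.05, against 14.3% of all genes called lower and 18.7% higher. With MLg, 1 gene was called lower, against 3.6% of all genes. Among the hosts, the sum was 361, 817, 863 and 953 CPM in C2C12 with EO771, against 208, 314, 307 and 515 CPM in C2C12 alone, and 2168, 2151, 2061 and 2494 CPM in MLg with EO771, against 1584, 1787, 1590 and 1628 CPM in MLg alone. Values of a group are given throughout in the order of its libraries, which carry the numbers R3-1, R5-1, R5-2 and R6-1 in both lines of the C2C12 co-culture and R5-1, R6-1, R6-2 and R7-1 in both lines of the MLg co-culture. The order is R3-1, R3-2, R5-1 and R6-2 for EO771 alone, R2-1, R3-1, R3-2 and R5-1 for C2C12 alone, and R3-2, R5-2, R6-1 and R6-2 for MLg alone. For EO771 with C2C12, the table filed under the sample R5-1 is named R5-2 and the reverse; values follow the sample, so this pair may be exchanged.

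**Figure D1:**
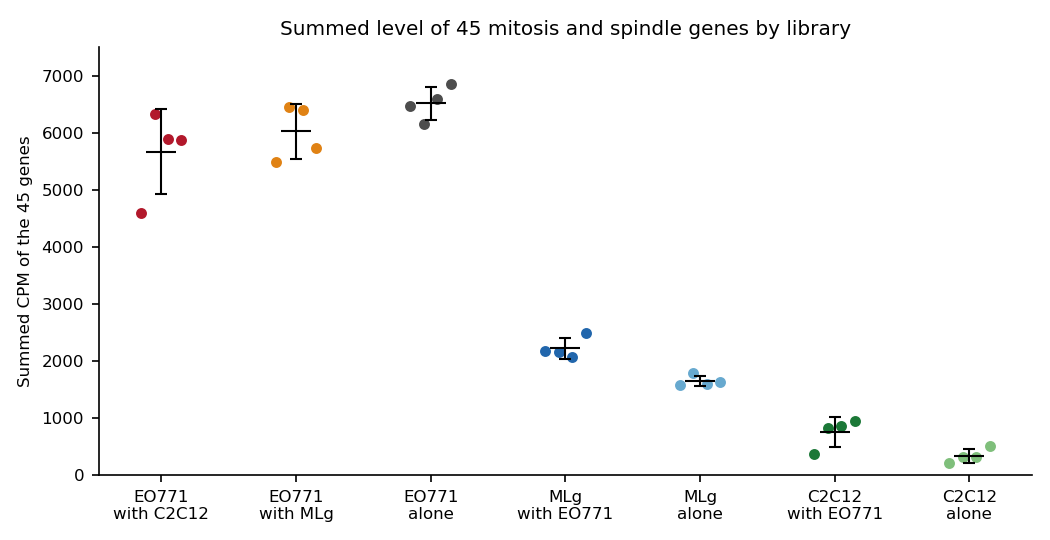
Summed CPM of the 45 mitosis and spindle genes (vertical axis) in each of the 28 libraries (points), by group, with the mean and SD of 4 libraries per group. The EO771 groups sit between 4583 and 6847 CPM, the MLg groups between 1584 and 2494 CPM and the C2C12 groups between 208 and 953 CPM; library R3-1 is the lowest point of EO771 with C2C12 and of C2C12 with EO771.

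Library totals ran from 27.61 to 47.41 M counts (M, 1000000) in EO771 with C2C12, 33.21 to 48.34 in EO771 with MLg, 34.09 to 38.98 in EO771 alone, 36.47 to 62.96 in C2C12 with EO771, 54.83 to 96.49 in C2C12 alone, 33.79 to 57.53 in MLg with EO771 and 61.73 to 69.69 in MLg alone. The lowest count of any of the 45 genes was 30, for Melk in a C2C12 alone library, so none was at 0. RNA of the partner line was estimated from genes that only the partner expresses: it made up 1.44 ± 0.585% of EO771 with C2C12, 1.55 ± 0.386% of EO771 with MLg, 4.46 ± 1.03% of C2C12 with EO771 and 8.52 ± 3.13% of MLg with EO771 (SD, n = 4 each). All 12 myotube markers reached 1 CPM in both C2C12 groups, with all 3 myoblast markers, and 8 of 9 fibroblast markers did so in both MLg groups. Of 7 epithelial markers only Krt8 did in EO771 alone. The myotube and myoblast markers thus set C2C12 apart, whereas the fibroblast markers did not set MLg apart: 8 of 9 reached 1 CPM in both C2C12 groups too. Only Krt8 marked EO771. Library R3-1 of EO771 with C2C12 was the lowest of its group for 43 of the 45 genes and the lowest of all 12 EO771 libraries for 32, and R3-1 of C2C12 with EO771 was the lowest of its group for 44. Calls of EO771 with C2C12 that were lost without R3-1 are named beside their genes.

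Promoter sequence is a feature that the choice of genes did not use. Windows from 250 bases before to 50 bases after the gene start (RefSeq, GRCm38.p6) were found for 37 of the 45 genes. Cdc25c, Incenp, Aurkb, Foxm1, Spc24, Dlgap5, Kif20a and Tpx2 had none in the table. The letters TTTGAA, the core of the cell cycle homology region of G2/M promoters, stood on either strand in 26 of the 37 windows (70.3%), against 18.1% of all 27025 windows. TTTGAA or its variant TTTAAA stood in 28 (75.7%), against 68.4% of 57 windows of other mitotic genes and 27.8% of all windows. The CCAAT box, searched on both strands, stood in 73.0%, against 37.9% of all windows. Both kinds of motif stood in 64.9%, against 10.9% of all windows. The first base of the 62 CCAAT matches had a median position of -61.5 and that of the 41 TTTGAA or TTTAAA matches a median of -5 relative to the start; in 1 window the 2 kinds shared bases. Split by the call in EO771 with C2C12 against alone, 11 of 14 windows of lower genes and 17 of 23 windows of genes not called held TTTGAA or TTTAAA. Of the same windows, 11 of 14 and 16 of 23 held CCAAT.

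The following promoter stretches run from 120 bases before to 30 bases after the start, 5′ to 3′ along the gene's strand, with each of the 3 motifs in capitals on either strand, so that TTTGAA can read TTCAAA, and the CCAAT box ATTGG. The first 4 belong to genes called lower in a co-cultured EO771 group and the last 3 to genes that were not called lower there; Bub1 has no TTTGAA or TTTAAA in its window. The windows they come from are chr10:69352863-69353162 (minus strand) for Cdk1, chr4:118437294-118437593 (minus) for Cdc20, chr15:102296043-102296342 (plus) for Espl1, chr11:99024140-99024439 (minus) for Top2a, chr7:122159185-122159484 (plus) for Plk1, chr2:164769679-164769978 (plus) for Ube2c and chr2:127831810-127832109 (minus) for Bub1.
Cdk1: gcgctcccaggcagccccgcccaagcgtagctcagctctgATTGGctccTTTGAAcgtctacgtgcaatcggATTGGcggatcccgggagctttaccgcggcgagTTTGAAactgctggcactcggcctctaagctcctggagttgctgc
Cdc20: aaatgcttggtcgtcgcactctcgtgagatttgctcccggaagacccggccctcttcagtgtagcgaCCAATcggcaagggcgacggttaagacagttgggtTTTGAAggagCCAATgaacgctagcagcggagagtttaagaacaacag
Espl1: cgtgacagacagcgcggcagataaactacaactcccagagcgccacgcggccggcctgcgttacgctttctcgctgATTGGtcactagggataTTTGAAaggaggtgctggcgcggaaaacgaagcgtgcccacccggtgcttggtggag
Top2a: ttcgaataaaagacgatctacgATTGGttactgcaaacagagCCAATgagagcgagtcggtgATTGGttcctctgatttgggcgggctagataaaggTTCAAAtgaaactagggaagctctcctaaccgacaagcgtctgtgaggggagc
Plk1: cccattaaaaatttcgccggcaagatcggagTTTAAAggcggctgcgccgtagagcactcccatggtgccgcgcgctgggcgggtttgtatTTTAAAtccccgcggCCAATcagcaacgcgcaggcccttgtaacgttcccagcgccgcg
Ube2c: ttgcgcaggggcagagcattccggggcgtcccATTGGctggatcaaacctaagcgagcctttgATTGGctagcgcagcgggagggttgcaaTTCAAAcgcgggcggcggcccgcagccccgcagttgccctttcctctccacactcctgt
Bub1: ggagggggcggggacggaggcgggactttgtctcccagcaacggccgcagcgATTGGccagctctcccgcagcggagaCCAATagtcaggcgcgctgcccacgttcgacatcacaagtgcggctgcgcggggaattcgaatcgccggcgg
In Cdk1, Cdc20, Espl1, Ube2c and Top2a a CCAAT box lies upstream of a TTTGAA, and in Plk1 both copies of TTTAAA lie upstream of the CCAAT box, with a TTTGAA downstream of it, just past the stretch shown.

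The first comparisons asked how cancer cells kept on C2C12 myotubes or MLg fibroblasts differed from cancer cells alone. All adjusted p-values are from edgeR's quasi-likelihood test with Benjamini-Hochberg adjustment over all genes tested, and a gene is called at an adjusted p under 0.05. With C2C12, 17 of 45 genes were called lower and 0 higher (13 and 1 with library totals in place of TMM scaling), with a median log2 fold change of -0.25 and 39 of 45 fitted below 0. Over all genes the median was 0.00, 33.0% were called in either direction, 18.7% higher and 14.3% lower. For 9 of the 45 genes every library with C2C12 was below every library of EO771 alone, against 12.9% of all genes. With MLg, 1 gene was called lower and 0 higher, with a median of -0.07, against 9.59% of all genes called in either direction, 5.99% higher and 3.6% lower. With MLg, 2 genes had an unadjusted p under 0.05, against 20.9% of all genes, and DESeq2 also called 0 higher. Both comparisons share the EO771 alone libraries. The labels do not say whether a group's libraries came from separate cultures, so each p-value refers to library-to-library spread that could be technical.

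**Figure D2:**
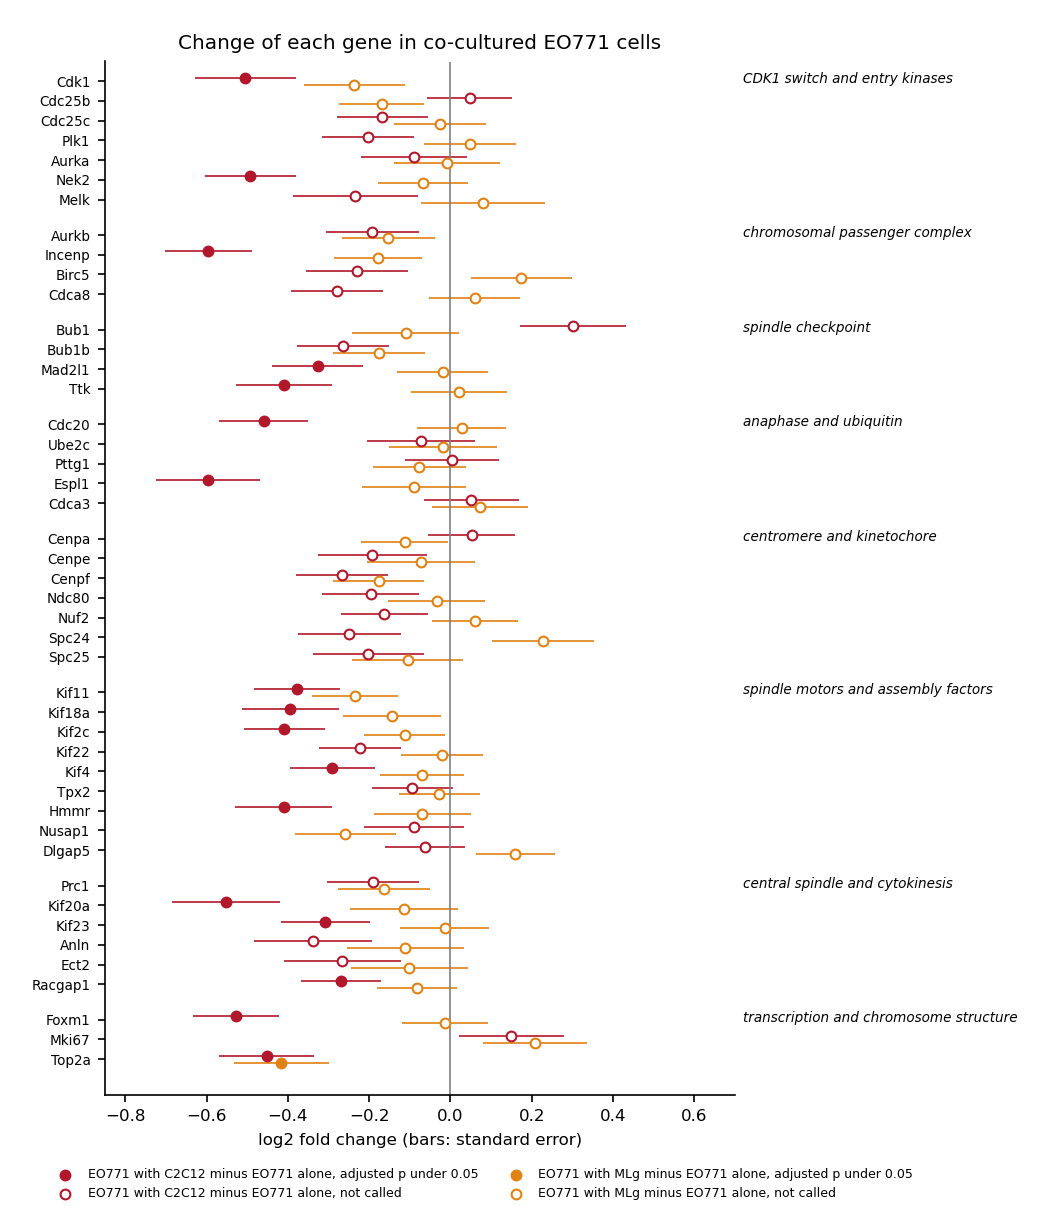
Log2 fold change against EO771 alone (horizontal axis) of each of the 45 genes, grouped by role, for EO771 with C2C12 and EO771 with MLg; bars are standard errors and filled points are called at an adjusted p under 0.05. With C2C12 the 17 called genes lie between -0.60 and -0.27, and with MLg only Top2a is called, at -0.42.

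Of the 7 genes of the CDK1 switch and entry kinases, Cdk1 and Nek2 fell with C2C12. Cdk1, the kinase whose activation starts mitosis, was at 153, 200.1, 182 and 189 CPM in EO771 with C2C12, at 179.6, 230.2, 234 and 179 CPM in EO771 with MLg and at 256, 197, 254 and 268 CPM in EO771 alone. Library R5-1 with C2C12 lay above the lowest library alone, and the other 3 lay below all of them (C2C12 against alone: log2 fold change -0.50, SE 0.12, adjusted p = 0.00426; MLg against alone: -0.24, adjusted p = 0.295). Nek2, a kinase of centrosome separation, averaged 55.1 ± 6.47 CPM with C2C12 and 73.6 ± 5.05 CPM alone, with no overlap (log2 fold change -0.49, SE 0.11, adjusted p = 0.00229). Plk1, the Polo-like kinase of mitotic entry and exit, had 108, 148, 147 and 157 CPM with C2C12, 146, 166, 168 and 148 CPM with MLg and 138, 152, 156 and 166 CPM alone. Its R3-1 value with C2C12 lay below the other 11 libraries and the rest of its group lay within the range alone (-0.20, adjusted p = 0.185 on the log2 scale). Aurka, the Aurora kinase of centrosomes and spindle poles, had 90.2, 118, 119.7 and 134 CPM with C2C12, 91.2, 135, 131 and 104 CPM with MLg and 128, 112, 105 and 122 CPM alone, with overlapping groups (log2 -0.09, adjusted p = 0.644). The CDC25 phosphatases that activate CDK1 were not called: Cdc25b had a log2 fold change of 0.05 and Cdc25c of -0.17, and Melk of -0.23.

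Within the chromosomal passenger complex, which corrects faulty attachments at the centromere, the scaffold was called and the other 3 subunits were not. Incenp, the scaffold subunit, had 180.2, 240.0, 231 and 220.2 CPM in EO771 with C2C12, 279, 260.2, 272 and 286 CPM in EO771 with MLg and 278, 296, 353 and 324 CPM in EO771 alone. All 4 libraries with C2C12 lay below the other 8, and Incenp was 0.662 times its level alone (log2 fold change -0.60, SE 0.11, adjusted p = 0.00035). Its kinase subunit Aurkb had 65.2, 81.2, 77.1 and 85.8 CPM with C2C12, 55.8, 77.1, 85.4 and 82.6 CPM with MLg and 89.9, 77.3, 83.4 and 85.3 CPM alone. These groups overlapped (log2 -0.19, adjusted p = 0.214 with C2C12). Survivin, the product of Birc5, is the subunit that binds the centromeric histone mark, and Birc5 had 65.9, 100.2, 95.4 and 97.9 CPM with C2C12, 96.0, 116, 127 and 110.1 CPM with MLg and 101, 88.9, 99.98 and 111 CPM alone. Its R3-1 library with C2C12 stood below all others while the remaining 3 lay within the range alone (log2 -0.23, adjusted p = 0.173). Cdca8, which encodes borealin, had a log2 fold change of -0.28 with an adjusted p of 0.0643.

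The 4 spindle checkpoint genes went different ways. Mad2l1 and Ttk, which encode the checkpoint protein MAD2 and the kinase MPS1, were called lower with C2C12, at log2 -0.33, adjusted p = 0.0317 and log2 -0.41, adjusted p = 0.0128. Without R3-1 the Mad2l1 call was lost (log2 -0.23, adjusted p = 0.117), as it was with library totals, after subtraction of partner RNA and without any 1 library of EO771 alone. Bub1, a checkpoint kinase of the kinetochore, had 129, 194, 181 and 197 CPM in EO771 with C2C12, 106, 145, 139 and 107 CPM in EO771 with MLg and 137, 129, 132 and 144 CPM in EO771 alone. The R5-1, R5-2 and R6-1 libraries with C2C12 lay above the other 9, and R3-1 lay within the range alone (log2 fold change 0.30, SE 0.13, adjusted p = 0.087). Without R3-1, Bub1 was called higher than alone (log2 fold change 0.43, adjusted p = 0.00837). Bub1b, which encodes BUBR1, had a log2 fold change of -0.27, adjusted p = 0.0813.

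Among the 5 genes of anaphase and ubiquitin transfer, the separase and the APC/C activator fell with C2C12 and the ubiquitin-conjugating enzyme did not pass the test. Espl1, which encodes separase, had 79.7, 136, 124 and 108 CPM in EO771 with C2C12, 155, 146, 149 and 150.4 CPM in EO771 with MLg and 146, 175, 168 and 155 CPM in EO771 alone. The 4 libraries with C2C12 lay below the other 8 (log2 fold change -0.60, SE 0.13, adjusted p = 0.00148). Cdc20, the activator of the APC/C, had 93.1, 111, 117 and 119 CPM with C2C12, 119.9, 151, 159.5 and 152 CPM with MLg and 145, 122, 149 and 158 CPM alone. Here too the libraries with C2C12 lay below all others (log2 fold change -0.46, SE 0.11, adjusted p = 0.00345). Ube2c, the E2 enzyme of the APC/C, had 89.1, 101, 103 and 110.3 CPM with C2C12, 75.2, 103, 116 and 103 CPM with MLg and 106, 78.0, 96.3 and 123 CPM alone. All 4 libraries with C2C12 lay inside the range alone (log2 -0.07, adjusted p = 0.718). Pttg1, which encodes the separase inhibitor securin, had a log2 fold change of 0.00, adjusted p = 0.986, and Cdca3 of 0.05, adjusted p = 0.776.

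None of the 7 centromere and kinetochore genes was called by edgeR in EO771 with C2C12, 1 had an unadjusted p under 0.05 (42.4% of all genes did), and their log2 fold changes ran from -0.27 for Cenpf to 0.05 for Cenpa. Cenpa, the histone H3 variant that marks centromeres, had 95.9, 102, 99.9 and 98.2 CPM with C2C12, 66.3, 73.1, 90.6 and 105 CPM with MLg and 94.9, 87.6, 84.8 and 95.9 CPM alone. R3-1 with C2C12 stood at the top of the range alone and the other 3 above it (log2 0.05, adjusted p = 0.751). Ndc80, which couples kinetochores to microtubules, had 57.0, 86.0, 84.9 and 75.8 CPM with C2C12, 67.001, 84.9, 88.1 and 81.2 CPM with MLg and 88.1, 78.3, 78.1 and 86.3 CPM alone. R3-1 with C2C12 was the lowest of these 12 libraries (log2 -0.20, adjusted p = 0.224). With MLg, all 4 libraries of Cenpf, a kinetochore protein, lay below those alone and all 4 of Spc24, an Ndc80 complex subunit, lay above them, although neither was called (log2 -0.18, adjusted p = 0.413 for Cenpf and 0.23, adjusted p = 0.329 for Spc24). Over all genes, 7.32% had every library lower and 7.06% every library higher.

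Of the 9 spindle motors and assembly factors, 5 fell with C2C12: Hmmr (log2 -0.41), Kif2c (-0.41), Kif18a (-0.39), Kif11 (-0.38) and Kif4 (-0.29). Without R3-1, Kif18a (log2 -0.31, adjusted p = 0.0642) and Kif4 (log2 -0.19, adjusted p = 0.139) were not called; the Kif4 call was lost in 10 of 15 alternatives. Kif11, the motor that pushes spindle poles apart, had 102, 141, 135 and 129 CPM in EO771 with C2C12, 123, 139.9, 137 and 129.7 CPM in EO771 with MLg and 169, 137, 158 and 163 CPM in EO771 alone. Only R5-1 with C2C12 reached above the lowest library alone (log2 fold change -0.38, SE 0.11, adjusted p = 0.01). Tpx2, the spindle assembly factor that activates Aurora A, had 275, 362, 340.2 and 337 CPM with C2C12, 297, 354, 338 and 309 CPM with MLg and 335, 319.7, 329 and 349 CPM alone. The groups overlapped, with R3-1 the lowest and R5-1 the highest of all 12 (log2 -0.09, adjusted p = 0.51). Hmmr, which acts in spindle pole assembly, averaged 107 ± 19.0 CPM with C2C12 and 136 ± 2.56 CPM alone (SD, n = 4 each; log2 fold change -0.41, SE 0.12, adjusted p = 0.0134). Kif2c, a microtubule depolymerase at centromeres, averaged 83.8 ± 11.5 CPM with C2C12 and 106 ± 4.11 CPM alone, and in both genes the groups did not overlap (log2 fold change -0.41, SE 0.10, adjusted p = 0.00392). Kif22, Nusap1 and Dlgap5 had log2 fold changes of -0.22, -0.09 and -0.06 and were not called.

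Of the 6 genes of the central spindle and cytokinesis, Kif20a, Kif23 and Racgap1 fell with C2C12. Kif20a, a kinesin of the central spindle, had 79.2, 121, 119.8 and 112 CPM in EO771 with C2C12, 127, 165, 146 and 112 CPM in EO771 with MLg and 149, 156, 151 and 146 CPM in EO771 alone. The libraries with C2C12 lay below every library alone, and those with MLg overlapped both groups (log2 fold change -0.55, SE 0.13, adjusted p = 0.00377 with C2C12). Kif20a overlaps Cdc23 on the opposite strand in the annotation, and whether counting used strand is not stated in the labels. The called genes Cdc20, Kif18a and Kif4 overlap Elovl1, Mettl15 and Pdzd11 in the same way. So do Cdc25b, Prc1 and Nusap1, which were not called, with Spef1, Rccd1 and Oip5. Kif23 and Racgap1, the partners of the centralspindlin complex, had log2 fold changes of -0.31, adjusted p = 0.0381 and -0.27, adjusted p = 0.0417. Neither was called without R3-1 (Kif23 log2 -0.19, adjusted p = 0.123 and Racgap1 log2 -0.22, adjusted p = 0.124), and over 15 alternatives the call was lost in 8 for Kif23 and in 11 for Racgap1. Prc1, which bundles the microtubules of the midzone, had 96.4, 134, 118 and 125 CPM with C2C12, 95.1, 131, 123 and 106 CPM with MLg and 121, 124, 128 and 139.8 CPM alone, and was not called (log2 -0.19, adjusted p = 0.216). Anln, which encodes the contractile ring protein anillin, had 237, 403, 361 and 358 CPM with C2C12, 393, 405, 386 and 314 CPM with MLg and 368, 376, 449 and 439.7 CPM alone. Its groups overlapped, with R3-1 with C2C12 below the other 11 libraries (log2 -0.34, adjusted p = 0.0812). Ect2, the RhoA activator of the cleavage furrow, had a log2 fold change of -0.27, adjusted p = 0.172.

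The last role group holds a transcription factor and a pair of chromosome proteins. Foxm1, which encodes a transcription factor that drives G2/M genes, had 106, 147, 140.4 and 137 CPM in EO771 with C2C12, 177, 186, 187 and 162 CPM in EO771 with MLg and 168, 187, 189.9 and 180.0 CPM in EO771 alone. Every library with C2C12 lay below the other 8 (log2 fold change -0.53, SE 0.11, adjusted p = 0.000907). In the annotation Foxm1 overlaps the protein-coding genes Tex52 and Gm44596 on its own strand, so strand cannot separate their reads. Top2a, which encodes the topoisomerase that untangles sister chromatids, had 449.9, 686, 585 and 585 CPM with C2C12, 507, 589, 578 and 556 CPM with MLg and 754, 675, 765 and 801 CPM alone. It was called lower with C2C12 (log2 fold change -0.45, SE 0.12, adjusted p = 0.00567), where R5-1 overlapped the lowest library alone, and with MLg (log2 fold change -0.42, SE 0.12, adjusted p = 0.0269), where no library overlapped. The call with MLg was lost without R5-1, R6-2 or R7-1 of EO771 with MLg, without R3-1, R5-1 or R6-2 of EO771 alone, and when partner RNA was subtracted, where the log2 fold change was -0.39 (adjusted p = 0.0598). Mki67, which encodes the proliferation marker Ki-67, had 108, 172, 172 and 136 CPM with C2C12, 151, 132, 145 and 149 CPM with MLg and 114, 121, 137 and 132 CPM alone. R5-1 and R5-2 with C2C12 were the highest of these 12 libraries and R3-1 the lowest (log2 0.15, adjusted p = 0.4 with C2C12 and 0.21, adjusted p = 0.396 with MLg).

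**Figure D3:**
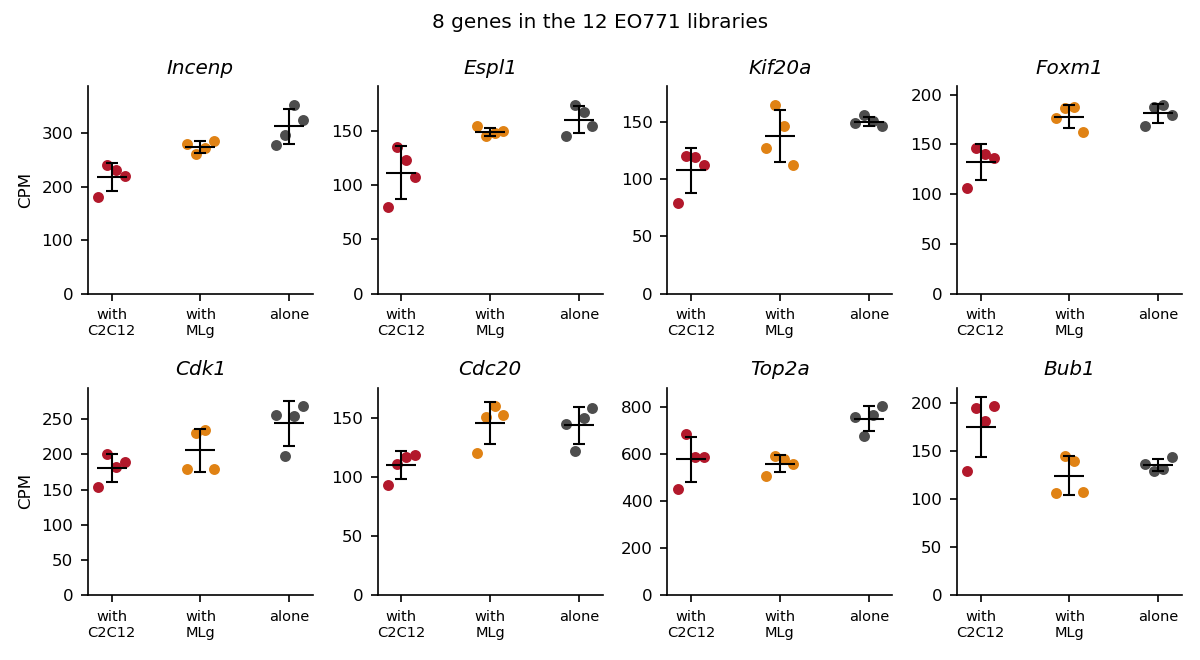
CPM of 8 genes (one panel each, vertical axis) in the 12 EO771 libraries, with points for libraries and lines for the mean and SD of 4 libraries in EO771 with C2C12, EO771 with MLg and EO771 alone. Incenp, Espl1, Cdc20 and Foxm1 with C2C12 lie below both other groups and Kif20a below EO771 alone, Top2a is lower in both co-cultures, and 3 of 4 Bub1 values with C2C12 lie above the rest.

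The lower calls with C2C12 did not all rest on R3-1: without that library 12 of the 45 genes were called lower, with a median log2 fold change of -0.16. Over all genes 1728 of 16166 were called lower in that fit. In a fit of all 28 libraries 3 of the 45 were called lower (Cdk1, Espl1 and Incenp), against 1536 of 19496 over all genes. In that fit the host libraries enter the estimate of the spread. Myotube markers were present in the same libraries, with 10 of 12 at 1 CPM or more and summed levels of 89.4, 126, 191 and 368 CPM with C2C12, against 9.4 to 10.7 CPM alone. Fibroblast markers, which C2C12 also expresses, summed to 447, 217, 271 and 380.0 CPM with C2C12, against 92.0 to 124 CPM alone, and C2C12 RNA was estimated at 1.21, 0.923, 1.34 and 2.27% of the 4 libraries. R3-1 was the lowest of the 4 in myotube markers and the highest in fibroblast markers. With the estimated C2C12 RNA subtracted, 13 of the 45 genes were called lower, against 2024 of 15337 over all genes.

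The direct comparison set the cancer cells of one co-culture against those of the other. In EO771 with C2C12, 13 of 45 genes were called lower and 1 higher than in EO771 with MLg (8 and 2 with library totals), with a median log2 fold change of -0.20. Over all genes, 27.7% were called in either direction, 12.7% lower and 15.0% higher. The largest differences were in Foxm1 (log2 fold change -0.51, SE 0.11, adjusted p = 0.0016), Espl1 (log2 fold change -0.51, SE 0.13, adjusted p = 0.00664) and Cdc20 (log2 fold change -0.49, SE 0.11, adjusted p = 0.00304), whose groups did not overlap. For 6 of the 45 genes, and 7.74% of all genes, every library with C2C12 was below every library with MLg. Spc24 (log2 -0.48), Kif20a (-0.44), Ttk (-0.43), Nek2 (-0.43), Incenp (-0.42), Birc5 (-0.40), Hmmr (-0.34), Cdca8 (-0.34), Mad2l1 (-0.31) and Kif2c (-0.30) were also lower with C2C12. Of the chromosomal passenger complex, Incenp was called lower with C2C12 than with MLg in all 15 alternatives. Birc5 and Cdca8 were called in the fit of all 12 EO771 libraries but not with library totals nor without R3-1 of EO771 with C2C12 (log2 -0.27, adjusted p = 0.0695 for Birc5 and -0.24, adjusted p = 0.115 for Cdca8), and the kinase subunit gene Aurkb was not called (log2 -0.04, adjusted p = 0.8291). Bub1 was the single gene called higher (log2 fold change 0.41, SE 0.13, adjusted p = 0.0263): 3 libraries with C2C12 lay above all 4 with MLg and R3-1 lay among them. For Top2a the co-cultures were not told apart (log2 -0.04, adjusted p = 0.845), nor for Cdk1 (log2 -0.27, adjusted p = 0.117). Of the remaining anchors of mitosis, Plk1 (-0.25), Aurka (-0.08), Ube2c (-0.05), Cenpa (0.16), Ndc80 (-0.16), Kif11 (-0.14), Tpx2 (-0.07), Prc1 (-0.03), Anln (-0.23) and Mki67 (-0.06) were not called on the log2 scale. Genes called lower in both this comparison and against EO771 alone numbered 10, which is 10 of the 13 and 10 of the 17. Without R3-1 of EO771 with C2C12, 7 were called lower, against 1326 of 16166 over all genes, and Kif20a, Mad2l1, Hmmr, Kif2c, Birc5 and Cdca8 were not. Without R6-1 or R6-2 of EO771 with MLg, 8 were, against 1955 of 16284 and 1780 of 16265 over all genes.

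Genes of mitosis outside the 45, and the APC/C, give the surroundings of these calls. Of 69 other mitotic genes, 2 were called higher and 29 lower in EO771 with C2C12 than alone, against 18.7% of all genes higher and 14.3% lower, with a median log2 fold change of -0.31. The APC/C inhibitor gene Fbxo5 had -0.67 and the kinetochore gene Cenpi -0.62, while Ncaph2, a condensin subunit, had 0.38 and Ccnb2, a mitotic cyclin, had 0.36. With MLg, edgeR called 0 higher and 2 lower, against 5.99% and 3.6% of all genes, among them Numa1 at -0.40. Between the co-cultures, 1 was higher with C2C12, Ncaph2 at 0.40, and 16 were lower, against 15.0% and 12.7% of all genes, led by Fbxo5 at -0.56 and Ska2 at -0.50. Of 14 APC/C subunits and partners, Ube2s (-0.55), Anapc7 (-0.34) and Cdc26 (-0.29) were called lower with C2C12 than alone, 3 of 14 beside 14.3% of all genes. None was called by edgeR with MLg, where 1 had an unadjusted p under 0.05.

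The hosts were compared in the same way, with EO771 and alone. In MLg with EO771, 37 of the 45 genes were called higher and 0 lower than in MLg alone, with a median log2 fold change of 0.51, and for 35 every co-cultured library lay above every library alone. Over all genes, 9.89% were called higher and 11.2% had every library higher. The 8 genes not called were Cenpf, Nuf2, Spc24, Spc25, Kif4, Kif20a, Racgap1 and Mki67. EO771 RNA, which carries more of these transcripts, made up 12.9, 6.08, 6.47 and 8.61% of the 4 co-cultured MLg libraries, against 0.0298% in MLg alone. Summed over the 45 genes, the mean was higher by 571.4 CPM in MLg with EO771, and the EO771 RNA estimated to be in those libraries carries 512.9 CPM. That amount equals 89.8% of the difference but is not reduced for the MLg RNA that EO771 RNA displaces in a library's total. The net contribution is therefore smaller. After that RNA was subtracted, 4 genes were called higher, against 3.39% of all genes, and the median log2 fold change was 0.22, with 44 of 45 fitted above 0.

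Among the entry kinases and passenger genes all 11 were called higher in MLg with EO771. Cdk1 had 109.9, 102, 100.1 and 113 CPM in MLg with EO771, against 72.7, 84.1, 82.7 and 82.5 CPM in MLg alone, with no overlap (log2 fold change 0.43, SE 0.07, adjusted p = 0.00155). Plk1 had 43.1, 39.0, 31.0 and 36.6 CPM against 19.5, 23.8, 20.6 and 19.7 CPM in MLg alone, and Aurka had 28.5, 26.8, 22.7 and 27.8 CPM against 12.4, 15.1, 13.2 and 16.2 CPM. In both kinases every co-cultured library lay above every library alone (log2 0.87, adjusted p = 0.00021 for Plk1 and 0.92, adjusted p = 0.000123 for Aurka). Aurkb had 30.1, 28.5, 24.4 and 28.4 CPM in MLg with EO771 and 17.9, 19.4, 18.3 and 14.4 CPM in MLg alone, Birc5 had 40.1, 38.6, 39.5 and 44.0 CPM and 25.0, 27.3, 28.9 and 25.5 CPM, and Cdca8 had 20.7, 17.2, 14.7 and 18.0 CPM and 8.84, 10.0, 8.85 and 8.65 CPM in these groups. None of the 3 overlapped (log2 0.70, adjusted p = 0.00104, 0.63, adjusted p = 0.000136 and 0.98, adjusted p = 0.000152 in that order). After subtraction of EO771 RNA, Cdk1 (log2 0.32), Aurkb (0.47) and Birc5 (0.39) were still called higher, whereas Plk1 (0.38), Aurka (0.40), Cdca8 (0.22) and Incenp (0.20) were not.

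All 9 checkpoint and anaphase genes were called higher in MLg with EO771. Ube2c had the largest fold change of the 45, with 32.8, 26.6, 23.4 and 21.9 CPM in MLg with EO771 and 12.5, 14.9, 13.4 and 12.0 CPM in MLg alone (log2 fold change 1.01, SE 0.13, adjusted p = 0.000278), and it stayed called after subtraction (log2 0.60). Cdc20 had 34.5, 24.9, 22.0 and 24.1 CPM in MLg with EO771 and 12.3, 15.3, 14.5 and 13.9 CPM in MLg alone (log2 fold change 0.94, SE 0.14, adjusted p = 0.000606), but after subtraction it was at log2 0.18 and not called. Bub1 had 28.2, 28.2, 25.4 and 33.6 CPM in MLg with EO771 and 16.5, 22.0, 20.1 and 19.1 CPM in MLg alone (log2 0.60, adjusted p = 0.0024), and after subtraction 0.08. The groups overlapped in none of these genes. Espl1 and Incenp, the genes with the largest falls in EO771 with C2C12, were higher in MLg with EO771 by 0.72 and 0.63 on the log2 scale. After subtraction they were at 0.21 and 0.20 and not called. Kif18a, a motor that aligns chromosomes, was higher by 0.80 and Ect2 by 0.65, and after subtraction by 0.38 and 0.26, not called.

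Of the kinetochore genes 3 of 7 were called higher in MLg with EO771, of the spindle factors 8 of 9 and of the central spindle genes 4 of 6. Cenpa had 28.3, 26.1, 31.8 and 38.6 CPM in MLg with EO771 and 21.5, 22.2, 19.8 and 19.2 CPM in MLg alone (log2 fold change 0.62, SE 0.11, adjusted p = 0.003), and Ndc80 had 27.2, 25.1, 21.4 and 29.2 CPM and 19.0, 19.1, 19.4 and 17.3 CPM (log2 fold change 0.48, SE 0.10, adjusted p = 0.00693). Both were free of overlap, and Cenpe was the other kinetochore gene called. Kif11 had 49.2, 48.7, 44.5 and 56.9 CPM in MLg with EO771 and 36.5, 39.9, 36.3 and 36.1 CPM in MLg alone (log2 0.45, adjusted p = 0.00345), Tpx2 had 88.2, 85.3, 77.4 and 99.7 CPM and 58.4, 69.2, 62.1 and 66.4 CPM (log2 0.48, adjusted p = 0.00245), and neither overlapped. Prc1 had 44.6, 50.5, 47.0 and 61.7 CPM in MLg with EO771 and 33.5, 45.4, 38.8 and 39.3 CPM in MLg alone, where R5-1 with EO771 fell under the highest library alone (log2 0.40, adjusted p = 0.0287). Anln had 99.0, 108, 94.0 and 121 CPM in MLg with EO771 and 70.6, 75.5, 69.0 and 69.6 CPM in MLg alone, with no overlap (log2 0.59, adjusted p = 0.000461). Foxm1 had 85.4, 75.2, 65.7 and 81.6 CPM in MLg with EO771 and 56.3, 65.2, 57.1 and 58.5 CPM in MLg alone (log2 0.40, adjusted p = 0.00994), and Top2a had 268, 282, 276 and 344 CPM and 252, 241, 203 and 201 CPM (log2 0.40, adjusted p = 0.0219). These were called with no overlap. Mki67 had 114, 135, 152 and 163 CPM in MLg with EO771 and 130.2, 147, 124 and 141 CPM in MLg alone. Its groups overlapped and it was not called (log2 0.08, adjusted p = 0.644). After subtraction of EO771 RNA, none of the genes named in this paragraph was called. The log2 fold changes were then 0.39 for Cenpa, 0.19 for Ndc80, 0.13 for Cenpe, 0.22 for Kif11 and 0.08 for Tpx2. They were 0.24 for Prc1, 0.22 for Anln, 0.24 for Foxm1, 0.29 for Top2a and 0.09 for Mki67.

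The CPM estimated from EO771 RNA, set against the MLg difference, varied from gene to gene. It is not reduced for the MLg RNA that EO771 RNA displaces in a library's total. It can therefore exceed the difference and is larger than the net contribution of EO771 RNA. For 12 of the 45 genes the estimated CPM was at least the difference of the means of MLg with EO771 and MLg alone. The median over the genes was 92.6% of the difference. It was 278.7% of the difference for Cenpf, 220.4% for Mki67 and 150.7% for Kif4, which were not called. At the low end it was 61.7% for Aurkb, 62.0% for Nusap1 and 65.1% for Ube2c, which were called. Calls did not follow this share throughout: Spc25, at 63.7%, was not called, and Tpx2, at 117.0%, and Bub1, at 112.3%, were. The library with the largest share of EO771 RNA, R5-1, was the highest of its group for 13 genes and the lowest for 13. R7-1 was the highest for 32.

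**Figure D4:**
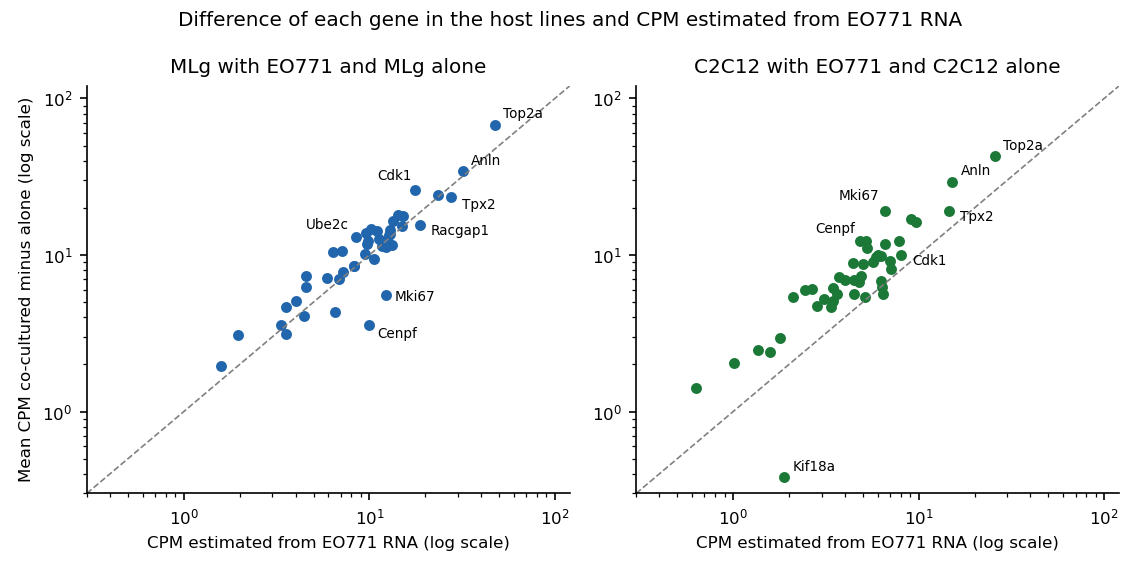
Difference of mean CPM, co-cultured minus alone, in MLg (left) and C2C12 (right) against the CPM estimated to come from EO771 RNA, for each of the 45 genes on log axes; the dashed line marks equality. In MLg the summed estimate is 89.8% of the summed difference and in C2C12 it is 61.0%. The estimate is not reduced for the host RNA that EO771 RNA displaces in a library's total, so it is larger than the net contribution.

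In C2C12 with EO771, 4 of the 45 genes were called higher and 0 lower than in C2C12 alone, although the median log2 fold change was 1.32. The R numbers were not matched between these groups, and same-numbered libraries deviated together (correlations of 0.637 for R3 and 0.542 for R5). By number, the sums were 361 CPM with EO771 against 314 and 307 CPM alone for R3. For R5 they were 817 and 863 CPM against 515 CPM. With the number as a block the median was smaller, as given in the last section. Over all genes, 2.58% were called higher. At an unadjusted p under 0.05 there were 38, against 10.7% of all genes, and DESeq2 called 29 higher, against 4.01% of all genes. The spread was wide: R3-1 with EO771 was at or under the highest library alone for 43 genes, while R5-1 lay over all 4 libraries alone for 43 and R5-2 and R6-1 for 44. Among the libraries alone, R5-1 was the highest for 43 genes and R2-1 the lowest for 40. Summed myotube markers differed widely too, at 730.0, 3125, 2760.3 and 2168 CPM in C2C12 with EO771 and 3862, 369, 671 and 4851 CPM in C2C12 alone. The R3 libraries were thus low in these markers in both groups. In C2C12 alone the markers did not follow the 45 genes: R2-1, the lowest library for 40 genes, had 3862 CPM of them. The part of the markers in the spread was not tested. EO771 RNA made up 3.31, 5.08, 3.89 and 5.54% of the co-cultured libraries, against 0.0227% in C2C12 alone, so R3-1 was also the lowest in EO771 RNA. The level summed over the 45 genes was higher by 412.5 CPM, and the estimated EO771 RNA carries 251.8 CPM, an amount equal to 61.0% of that difference. It is not reduced for the C2C12 RNA that EO771 RNA displaces, so the net contribution is smaller. After EO771 RNA was subtracted, edgeR called 0 genes, against 0.697% of all genes called higher, and 4 had an unadjusted p under 0.05. The genes called before subtraction had adjusted p-values of 0.475 or more, and the median was 0.69, with 43 of 45 fitted above 0. Without R3-1 of C2C12 with EO771, 23 genes were called higher, against 521 of 17142 over all genes. Without R5-1 of C2C12 alone it was 13, against 488 of 16839. Without any other single library it was 1 or 2.

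The 4 genes called in C2C12 were Cenpa, Espl1, Kif22 and Incenp. Espl1 had 8.11, 12.5, 15.9 and 14.9 CPM in C2C12 with EO771 and 3.17, 3.00, 3.602 and 6.41 CPM in C2C12 alone, with every co-cultured library above every library alone (log2 fold change 1.62, SE 0.28, adjusted p = 0.0121). It was called in every fit that left out 1 library. Incenp had 17.7, 36.1, 29.98 and 29.9 CPM in C2C12 with EO771 and 9.74, 12.3, 11.6 and 15.2 CPM in C2C12 alone, also with no overlap (log2 fold change 1.16, SE 0.21, adjusted p = 0.0158); 6.54% of all genes had every library higher. Cenpa had 5.91, 13.7, 14.0 and 14.7 CPM in C2C12 with EO771 and 2.01, 2.04, 2.67 and 6.03 CPM in C2C12 alone (log2 fold change 1.88, SE 0.40, adjusted p = 0.0385), and Kif22, a motor that moves chromosome arms, had 5.75, 11.1, 10.5 and 12.6 CPM and 2.66, 3.42, 3.35 and 6.00 CPM (log2 fold change 1.32, SE 0.30, adjusted p = 0.0496). In both, R3-1 with EO771 lay under R5-1 alone. All 4 calls were lost when EO771 RNA was subtracted, with log2 fold changes of 1.32 for Cenpa, 1.01 for Espl1, 0.80 for Kif22 and 0.66 for Incenp.

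The other anchors in C2C12 were not called, and their R3-1 library with EO771 lay at or under the highest library alone. Cdk1 had 23.7, 34.9, 32.1 and 36.9 CPM in C2C12 with EO771 and 19.6, 22.3, 21.8 and 23.9 CPM in C2C12 alone (log2 0.49, adjusted p = 0.149). Plk1 had 4.69, 12.9, 12.1 and 10.8 CPM and 1.28, 2.77, 2.29 and 6.80 CPM in these groups (log2 1.58, adjusted p = 0.188), and Aurka had 4.25, 12.5, 9.89 and 11.1 CPM and 2.30, 3.61, 3.99 and 6.33 CPM (log2 1.17, adjusted p = 0.201). In these 3 kinases the libraries other than R3-1 lay above all 4 libraries alone. Aurkb had 3.75, 9.98, 9.07 and 8.19 CPM in C2C12 with EO771 and 0.711, 2.55, 2.40 and 5.00 CPM in C2C12 alone (log2 1.49, adjusted p = 0.252), and Birc5 had 4.64, 15.0, 11.5 and 13.1 CPM and 1.42, 3.78, 3.31 and 8.15 CPM (log2 1.36, adjusted p = 0.31). Bub1 had 3.01, 11.2, 13.1 and 15.9 CPM in C2C12 with EO771 and 1.39, 2.62, 2.28 and 4.61 CPM in C2C12 alone (log2 1.93, adjusted p = 0.091), the widest log2 difference of the 45 genes. Cdc20 had 4.16, 15.7, 12.6 and 14.4 CPM and 1.99, 3.54, 3.78 and 8.09 CPM (log2 1.38, adjusted p = 0.257). The same order of libraries held for these 4 genes, with R3-1 the lowest with EO771 and R5-1 the highest alone.

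Ube2c had 3.36, 12.1, 8.21 and 10.5 CPM in C2C12 with EO771 and 1.84, 2.09, 1.90 and 6.01 CPM in C2C12 alone (log2 1.49, adjusted p = 0.209). It overlaps the muscle troponin gene Tnnc2 on the opposite strand, so reads of the pair may not be separated in this line. Ndc80 had 2.80, 8.56, 8.81 and 9.50 CPM in C2C12 with EO771 and 1.37, 2.28, 2.39 and 4.90 CPM in C2C12 alone (log2 1.39, adjusted p = 0.209), and Kif11 had 5.33, 16.4, 16.2 and 18.2 CPM and 1.82, 5.05, 5.03 and 7.96 CPM (log2 1.44, adjusted p = 0.206). Kif11, the pole-separating motor, has processed pseudogenes that overlap it in the annotation. Tpx2 had 16.4, 37.0, 37.9 and 41.2 CPM in C2C12 with EO771 and 7.81, 13.4, 13.9 and 20.8 CPM in C2C12 alone (log2 1.19, adjusted p = 0.125), and Prc1 had 8.50, 18.8, 22.3 and 25.1 CPM and 4.89, 6.24, 6.65 and 12.9 CPM (log2 1.24, adjusted p = 0.16). Anln had 19.7, 41.6, 56.7 and 70.1 CPM and 8.37, 15.8, 14.9 and 31.4 CPM (log2 1.37, adjusted p = 0.205), and Foxm1 had 9.38, 20.3, 22.0 and 22.5 CPM and 5.33, 8.00, 8.60 and 13.4 CPM (log2 1.02, adjusted p = 0.198). In each of these genes R3-1 was the lowest library with EO771. Mki67 had 15.4, 41.3, 54.3 and 54.7 CPM in C2C12 with EO771 and 8.39, 26.1, 22.7 and 31.6 CPM in C2C12 alone (log2 0.84, adjusted p = 0.571), and Top2a had 29.4, 72.7, 80.7 and 91.1 CPM and 13.7, 25.0, 26.3 and 37.7 CPM (log2 1.36, adjusted p = 0.108). Kif18a went its own way, with 6.80, 4.69, 6.29 and 6.61 CPM in C2C12 with EO771 and 3.87, 7.85, 6.85 and 4.30 CPM in C2C12 alone: the co-cultured libraries lay within the range of C2C12 alone (log2 0.03, adjusted p = 0.987).

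The response of C2C12 was not shown to differ from that of MLg. The interaction, the C2C12 log2 fold change minus the MLg one, was called for 0 of 45 genes by edgeR and 0 by DESeq2, against 1.84% of all genes by edgeR, and 18 of the 45 had an unadjusted p under 0.05, against 12.9% of all genes. Its median was 0.76, and Kif18a, at -0.77, was the single gene fitted below 0. After EO771 RNA was subtracted, 37 of the 45 were fitted above 0. In that fit 0 of the 45 were called, against 19 higher and 20 lower of 18317 over all genes. Of the 69 other mitotic genes, 7 were called higher in C2C12 with EO771, led by Cep55, a protein of abscission, at 1.99 and the kinetochore gene Nsl1 at 1.89, against 2.58% of all genes, and 41 in MLg with EO771, against 9.89%, among them the cyclin gene Ccnb1 at 0.81. EdgeR called none of the 14 APC/C subunits and partners in either host, where 0 in C2C12 and 4 in MLg had an unadjusted p under 0.05, against 10.7% and 29.6% of all genes.

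The lines grown alone had wider median differences than any line had from its own co-culture. EO771 alone was called higher than C2C12 alone for 45 of 45 genes, with a median log2 fold change of 4.52, against 36.2% of all genes called higher. Against MLg alone, EO771 was higher for 44, with a median of 2.15 (36.8% of all genes), and C2C12 alone was lower than MLg alone for 43, with a median of -2.25 (30.9% of all genes called lower). For 42 genes the order was EO771 above MLg above C2C12, each step called; the contrasts share libraries. Over all genes, the median log2 fold change of EO771 minus C2C12 was -0.12 with TMM and 0.02 with library totals, and that of C2C12 minus MLg was -0.03 and -0.19. With library totals, 44 genes in place of 43 were called lower in C2C12 than in MLg, and the counts of the comparisons with EO771 did not move. Mki67 was the exception at the top, with 126 ± 10.2 CPM in EO771 alone and 135 ± 10.3 CPM in MLg alone (SD, n = 4 each; log2 -0.10, adjusted p = 0.735). Cdc25b (log2 -0.34, adjusted p = 0.0895) and Kif18a (log2 -0.13, adjusted p = 0.588) were the exceptions at the bottom, where C2C12 alone and MLg alone overlapped. Kif18a averaged 5.72 ± 1.94 CPM in C2C12 alone and 7.08 ± 0.432 CPM in MLg alone, against 52.5 ± 2.81 CPM in EO771 alone.

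The distance between lines varied with the gene. Against C2C12 alone, the widest gaps were in Bub1 (log2 5.47), Plk1 (5.39), Espl1 (5.17), Kif2c (4.97) and Ube2c (4.95), and the narrowest in Cdc25b (2.20), Mki67 (2.34) and Racgap1 (2.81). Against MLg alone the widest were in Cdc20 (3.36), Cdca8 (3.36) and Aurka (3.04), and the narrowest calls in Nuf2 (1.01) and Spc25 (1.07). Between C2C12 and MLg, the largest were the chromokinesin Kif4 (-3.07), Top2a (-2.97), Kif11 (-2.74) and Bub1 (-2.67). For the entry kinase Cdk1 the log2 differences were 3.32, 1.60 and -1.72, and for Aurkb 4.81, 2.26 and -2.55, in the order EO771 minus C2C12, EO771 minus MLg and C2C12 minus MLg. In the same order they were 4.43, 1.91 and -2.52 for Birc5, 4.69, 2.14 and -2.55 for Cenpa, 4.76, 2.15 and -2.62 for Ndc80, and 4.42, 2.38 and -2.04 for Tpx2. They were 3.92, 1.71 and -2.21 for Prc1, 4.38, 2.52 and -1.86 for Anln, and 4.20, 1.61 and -2.59 for Foxm1.

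To compare levels between genes, CPM was divided by the length of the gene's exons in kilobases. In EO771 alone the highest levels were those of Top2a at 83.1, Cdc20 at 76.8, Incenp at 72.2, Tpx2 at 71.2 and Plk1 at 69.6 CPM per kb, and the lowest was that of Kif18a at 5.34. In C2C12 alone the CDK1-activating phosphatase gene Cdc25b led at 7.20 CPM per kb, before Cdk1 at 4.44 and Racgap1 at 4.25. The proliferation marker Mki67 had 12.5 CPM per kb in EO771 alone, 2.21 in C2C12 alone and 13.5 in MLg alone.

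**Figure D5:**
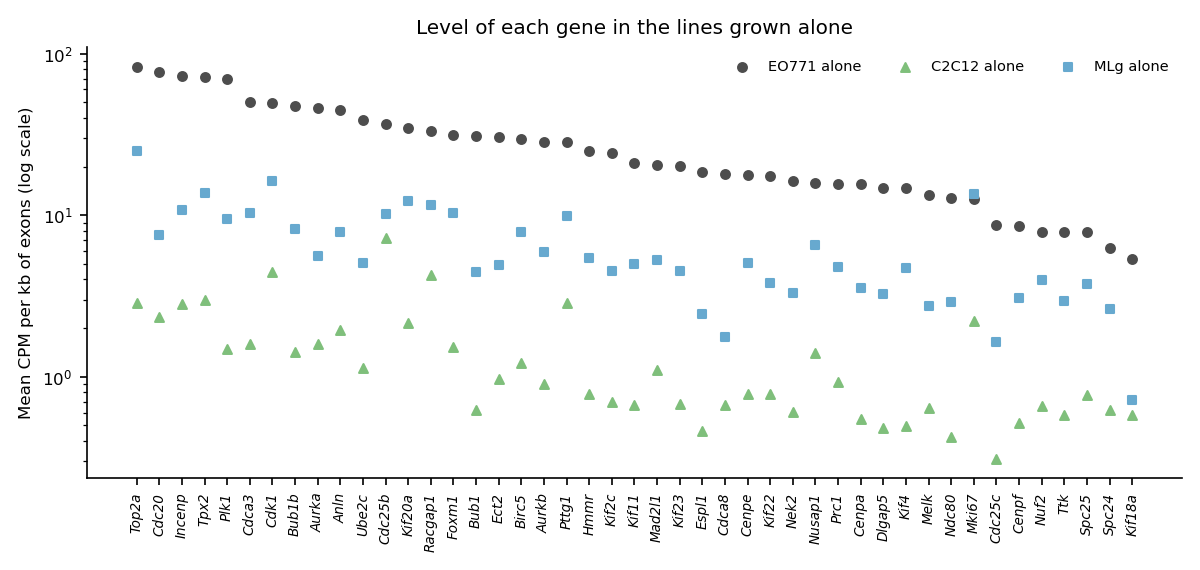
Mean CPM per kb of exon (log axis) of each of the 45 genes in EO771 alone, C2C12 alone and MLg alone, ordered by the level in EO771; each point is the mean of 4 libraries. EO771 lies above both hosts for every gene except Mki67, which is at 12.5 in EO771 and 13.5 in MLg, and C2C12 lies lowest for every gene, with Kif18a and Cdc25b close to MLg.

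Other mitotic genes were ordered alike: of 69, 67 were called higher and 1 lower in EO771 alone than in C2C12 alone, 66 higher and 1 lower than in MLg alone, and 2 higher and 62 lower in C2C12 alone than in MLg alone. The cohesin protector gene Sgo1 (6.10) and the cohesion gene Cdca5 (5.77) led the first comparison on the log2 scale, Ccnb1 (2.85) was among the highest in the second, and Sgo1 (-3.43) and Kif14 (-3.06) led the third. Zw10, a checkpoint gene, ran the other way, at -0.27 against C2C12 and -1.22 against MLg, as did Cit (1.13) and Ckap5 (0.28) in C2C12 against MLg.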

How the data were processed

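The deposited tables hold raw read counts per Ensembl gene, 1 table per library, for 28 libraries of RNA extracted with RNeasy and prepared with TruSeq Stranded mRNA per the labels' protocols. STAR 2.7.10a, Subread 2.0.1 with featureCounts, fastp and DESeq2 are listed in the submitters' processing notes, and the labels state no genome build, annotation or strand setting. Symbols and exon lengths came from GENCODE (GRCm38), which gave 55233 of 55536 identifiers a symbol of their own. In 5 libraries every count is even, against 41.58 to 44.76% odd counts in the other 23, and halving them was an alternative. They are R3-1, R5-1 and R6-1 of EO771 with C2C12 and R5-1 and R6-1 of MLg with EO771, so all are co-cultured libraries. Their totals are given as deposited and may be doubled. Groups came from the labels. The 45 genes and the other lists were chosen with earlier results of these data known. Of them, the text names all called genes up to 12 each way per comparison, 17 fixed anchors, and the 2 largest calls each way of the other mitotic genes, of which 1 gene is not reported here.

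Counts were tested with edgeR 4.0.16 in R 4.3.3 (TMM, filterByExpr with a minimum count of 10 and total of 15, quasi-likelihood F test, Benjamini-Hochberg over all genes). The 45 genes passed the filter in every fit. The 12 EO771 libraries entered 1 fit, the 12 libraries of lines alone another, and each host its own 8, with 16 for the interaction. CPM is the count over the library total. Standard errors are the log2 fold change over the square root of F. Partner RNA was the summed CPM of genes at 10 CPM or more in the partner alone and at most 0.1 CPM in the line studied, relative to the partner's libraries of the same co-culture. Alternatives were DESeq2 1.42.0, no filter, library totals, a replicate block, halved even counts, partner counts subtracted, other sets of libraries and leaving out each library. The script was tested on simulated counts.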

Additional observations from a re-analysis of the deposited data

Results flagged for a closer look

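Library R3-1 of EO771 with C2C12 stood apart from the other 3 of its group in the summed level of the chromosomal passenger complex (377 CPM), in Birc5 (65.9 CPM) and in Kif22 (68.3 CPM). The RNA of its host, R3-1 of C2C12 with EO771, stood apart in Cenpa (5.91 CPM), Ndc80 (2.80 CPM), Kif11 (5.33 CPM), Tpx2 (16.4 CPM), Foxm1 (9.38 CPM) and Melk (2.30 CPM), each time as the lowest library. Within C2C12 alone, R5-1 was the highest library by a wide gap in the summed CDK1 switch and entry kinases (86.7 CPM), Cdca8 (5.70 CPM), Ube2c (6.02 CPM) and Cenpa (6.03 CPM). In MLg with EO771, R5-1 had the lowest Kif20a (55.3 CPM). In MLg alone, R3-2 was low in Cdk1 (72.7 CPM), R5-2 high in Cdca8 (10.0 CPM) and Kif11 (39.9 CPM), and R6-1 low in Kif4 (24.2 CPM). Kif4 was also low in R3-2 of EO771 alone (76.7 CPM). In each case the gap to the nearest library, divided by the range of the 4, was over the 95% critical value of Dixon's test. Of 378 sets of 4 values tested, 19 passed, and chance gives about 18.9.

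The response of EO771 to its hosts differed between C2C12 and MLg in 14 of the 45 genes by the edgeR test of the difference itself. That is close to the share over all genes, 27.7%. By direction, 13 were lower with C2C12, against 12.7% of all genes, and 1 higher, against 15.0%. Of the 14, 7 were called in every fit that left out 1 library. The log2 difference was -0.51 for Foxm1, -0.51 for Espl1, -0.49 for Cdc20, -0.48 for Spc24, -0.44 for Kif20a, -0.43 for Ttk and -0.43 for Nek2. It was -0.42 for Incenp, -0.40 for Birc5, -0.34 for Hmmr, -0.34 for Cdca8, -0.31 for Mad2l1, -0.30 for Kif2c and 0.41 for Bub1.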

How the results depend on the processing

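With C2C12 against alone, EO771 cells had 1 gene called higher without a low-count filter and 1 with library totals. Over all genes it was 3183 of 31188 and 3433 of 15794. Called lower were 27 with a replicate block and 3 with all 28 libraries in 1 fit, against 2971 of 15794 and 1536 of 19496. With MLg against alone, 2 were lower with the block, 0 after subtraction and 0 with all 28 libraries. Over all genes it was 518 of 15794, 461 of 15337 and 329 of 19496. With C2C12 against MLg, 2 were higher with library totals, 3 with the block and 0 with all 28. Over all genes it was 3024 of 15794, 2326 of 15794 and 2207 of 19496. Called lower were 8 with library totals and 1 with all 28, against 1381 of 15794 and 1956 of 19496. In C2C12 with EO771, 29 were higher by DESeq2, 9 without a filter and 2 with the block, where the median was 0.51. After subtraction 0 were higher, and 2 were without libraries numbered R3. Over all genes it was 667 of 16618, 510 of 30465, 373 of 16625, 114 of 16365 and 315 of 17241, in that order. In MLg with EO771, 4 were higher after subtraction, with a median of 0.22, against 555 of 16375 called higher over all genes. Leaving out single libraries gave 0 to 1 higher and 12 to 18 lower genes (median -0.30 to -0.16) in EO771 with C2C12 against alone. It gave 0 to 1 lower (median -0.10 to -0.02) with MLg, 0 to 2 higher and 7 to 15 lower (median -0.25 to -0.12) between the co-cultures. In the hosts it gave 1 to 23 higher (median 1.04 to 1.66) in C2C12, 31 to 39 higher (median 0.45 to 0.58) in MLg, 0 to 3 higher (median 0.45 to 1.14) in the interaction and, for EO771 alone against MLg alone, a median of 2.05 to 2.17. Over all genes, 1728 to 2028 were lower in EO771 with C2C12 against alone and 1326 to 1955 between the co-cultures. In the hosts 301 to 521 of all genes were higher in C2C12 and 1168 to 1963 in MLg. These fits tested 16086 to 17286 genes. Same-numbered libraries did not deviate together in EO771 with C2C12 and alone (correlations 0.0869, 0.0814 and 0.0258), so the block is not taken as a pairing there. In C2C12 the correlations were 0.637 and 0.542 over 2 numbers, and the median with the block, 0.51, was under the 1.32 without it. No called result changed sign. The causes were not tested. Of single-gene results, 5768 kept their side of the threshold, 203 lost a call and 104 gained one. The lowest count of any of the 45 genes in a library was 30.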
